A study of Rattus norvegicus with 55 samples.

Results

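The comparison described here sets 11 arrays of mature rat kidney against 11 arrays of rat kidney whose description carries no stage word. These 22 arrays, of 55 in the whole series, were chosen by measured values, since their intensity for 1 probe set of RT1-Bb (X56596_at), the beta chain of an MHC class II molecule, lay below 600. All samples are titled SHR kidney, where SHR commonly stands for spontaneously hypertensive rat, while every description calls the animals Wistar-derived. Total RNA of kidney was hybridised in each case to a 1-colour Affymetrix array, and the stage word is the only difference between the 2 descriptions. The labels give no age, sex, diet, treatment or blood pressure, and nothing in them says what the missing stage word stands for. Nor do they tie each array to an animal of its own, so the p-values rest on a spread between samples that may be technical.

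Most of the kidney cortex consists of proximal tubules, which reclaim filtered glucose, phosphate, peptides and amino acids through transporters of the brush border. These cells draw most of their energy from the oxidation of fatty acids in mitochondria and peroxisomes, and they also make glucose from amino acids. The distal nephron and collecting duct then adjust sodium and water under hormonal control, and a collagen and laminin matrix supports tubules and vessels.

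The RT1-Bb value that chose the arrays had a lowest value of 116, a median of 143 and a highest value of 258 in mature kidney, against 105, 156 and 247 in kidney without a stage word. The nearest arrays above the threshold with these 2 descriptions began at 1480, so thresholds of 400 and 1000 choose the same 22 arrays. The probe set X56596_at was left out of the tests. Another 3 probe sets of RT1-Bb stayed in the fit and were bright on these arrays, with medians of 953, 1360 and 607 on 8 mature arrays, against 678, 1180 and 394 on 8 without a stage word. The choice of arrays thus rests on 1 probe set of the gene, and RT1-Bb is given as a description only, although the dimmest of these 3 is among the probe sets called higher below. On 2 of the mature arrays the GAPDH control probes gave a 3'/5' ratio above 3 (replicates 1 and 9, with 7.18 and 3.47), against a highest ratio of 1.22 in kidney without a stage word. Their median correlation with the other 21 arrays was 0.77 and 0.792, against 0.89 to 0.965 for the rest. Clustering on 42 control probe sets put the arrays into 3 control-probe sets. Set 3 held 10 mature arrays and 8 without a stage word, set 1 held 1 mature array (replicate 5), and set 2 held 3 arrays without a stage word (replicates 1, 5 and 9). The labels name no batch. In accession order the arrays outside set 3 or of high GAPDH ratio were replicates 1, 5 and 9 in both groups, and the RT1-Bb-high arrays were replicates 4, 8 and 12 in both. The labels do not say what this order stands for, and whether the sets are technical was not tested. Replicate 14 without a stage word, in set 3, read 12858 for the 18S control probe set, against 67.4 to 219 on the other 7 such arrays of set 3, and had their highest 5S value. None of the 6 control values compared between the groups passed a permutation test after adjustment, with adjusted p-values from 0.208 to 0.545 over the 22 arrays. In the 8 mature and 8 unstaged arrays described next, those of the same test ran from 0.146 to 0.876. The lowest was for the median intensity of an array, with medians of 159 and 169. Markers of kidney were bright in both groups, with medians of 16600 and 16400 for Umod, the uromodulin of the thick ascending limb, and of 2010 and 2640 for Aqp2, the water channel of the collecting duct, in the 8 mature and 8 unstaged arrays described next.

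How much differed between the groups depended on which arrays were set against each other. Over all 22 arrays 1 of 6554 probe sets passed an adjusted p of 0.05 (0.0153% called), and it was higher in mature kidney. At an unadjusted p under 0.05 the numbers were 202 higher (3.08%) and 284 lower (4.33%). Without the 2 arrays of high GAPDH ratio, 3 probe sets were higher and 2 lower (0.0763% called). With these arrays left out and the control-probe set added as a block, 89 were higher and 94 lower (2.79%). The direct form of that comparison, 8 mature and 8 unstaged arrays of set 3 with a GAPDH ratio below 3, called 124 probe sets higher and 115 lower (3.65% called, 1.89% higher and 1.75% lower). This comparison of 16 arrays was an alternative to the one over 22, and the genes below are described in it after its larger number of calls was known. A scale that centres every array on its own median gave 176 higher and 42 lower, and quantile normalization gave 124 higher and 74 lower. The 124 higher probe sets were higher and the 115 lower ones lower under both scalings. Median centring adds the same 0.081 to every difference, and quantile normalization moved the median difference by 0.049. Shifts of this size could hardly turn a call, so the kept directions are no separate support.

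**Figure D1:**
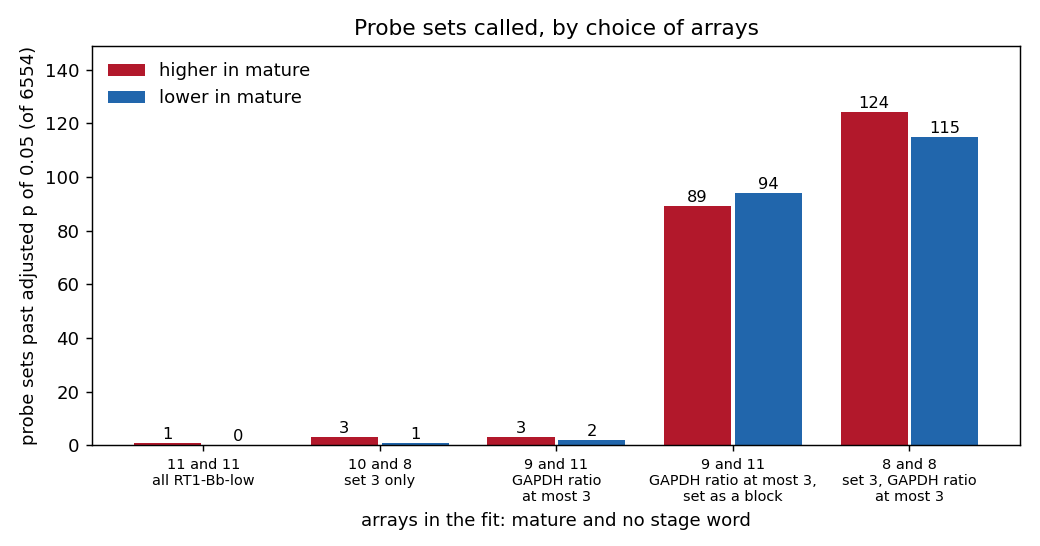
Number of probe sets past an adjusted p of 0.05 (vertical axis) for 5 choices of arrays (horizontal axis, numbers of mature arrays and of arrays without a stage word), with bars for higher and for lower intensity in mature kidney. The bars stand at 1 and 0 with all 22 arrays and at 124 and 115 with the 8 and 8 arrays of set 3.

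The 239 probe sets called in the 16 arrays included 182 with a single gene symbol, for 176 genes, while 50 carried none. The 8 mature values all lay above or all below the 8 values without a stage word for 28 of the higher and 26 of the lower calls, where 0.427% and 0.488% of all probe sets were separated in that way. The 124 higher probe sets were also higher in mature kidney over all 22 arrays in 82 cases (66.1%, against 45.0% of all probe sets), and the 115 lower ones were lower in 101 (87.8%, against 55.0%). These shares come from arrays that include the same 16.

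The probe set called over all 22 arrays was M33648_at, to which the annotation used here gives no gene. Its intensity had a lowest value of 185, a median of 264 and a highest value of 397 on the 8 mature arrays, against 23.1, 28.8 and 82.1 on the 8 arrays without a stage word. The groups did not overlap, and the difference was 2.57 ± 0.17 on the log2 scale (SE, adjusted p = 1.25e-07), about 5.93-fold. Of the other 6 arrays, the mature array of set 1 read 636 and the 2 mature arrays of high GAPDH ratio read 34.7 and 36.0, against 22.3, 54.9 and 23.7 on the arrays without a stage word. Over the 22 arrays the difference was 2.23 ± 0.34 (adjusted p = 0.00534). A second probe set designed from the same sequence record, M33648_g_at, had medians of 529 and 355 in the 16 arrays and differed by 0.67 ± 0.11 (adjusted p = 0.00542), again without overlap. On it the 2 mature arrays of high GAPDH ratio were high, at 985 and 2200. Young kidney of set 3 had a median of 25.4 for M33648_at and immature kidney with low RT1-Bb a median of 309, so the arrays without a stage word lay near the young ones. Those immature arrays all belong to sets 1 and 2, so stage and control-probe set cannot be told apart in their median.

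Slc34a1, which encodes the sodium-phosphate cotransporter of the proximal tubule brush border, had the largest fall among named probe sets, on AB013453_at. Mature kidney read from 890 through a median of 1060 up to 3130, and kidney without a stage word 3400, 4700 and 6040. The highest mature value, of replicate 3, stood far from the other 7, yet the groups did not overlap. The difference was -1.92 ± 0.21 (adjusted p = 1.18e-04), and over all 22 arrays it was -1.27 with an adjusted p of 0.112. Those of the 22 arrays outside the 16 tended the other way. On them mature kidney read 2740, 3130 and 3330, against 1700, 2130 and 2960 in kidney without a stage word. The other 4 probe sets assigned to Slc34a1 did not pass, with differences of 0.32, 0.14, 0.18 and -0.25 in the 16 arrays and of -0.10, 0.17, -0.83 and -0.40 over the 22. They were brighter, with medians from 9990 to 22300 in mature kidney and from 8680 to 24700 in kidney without a stage word. The fall was measured on 1 probe set of 5.

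**Figure D2:**
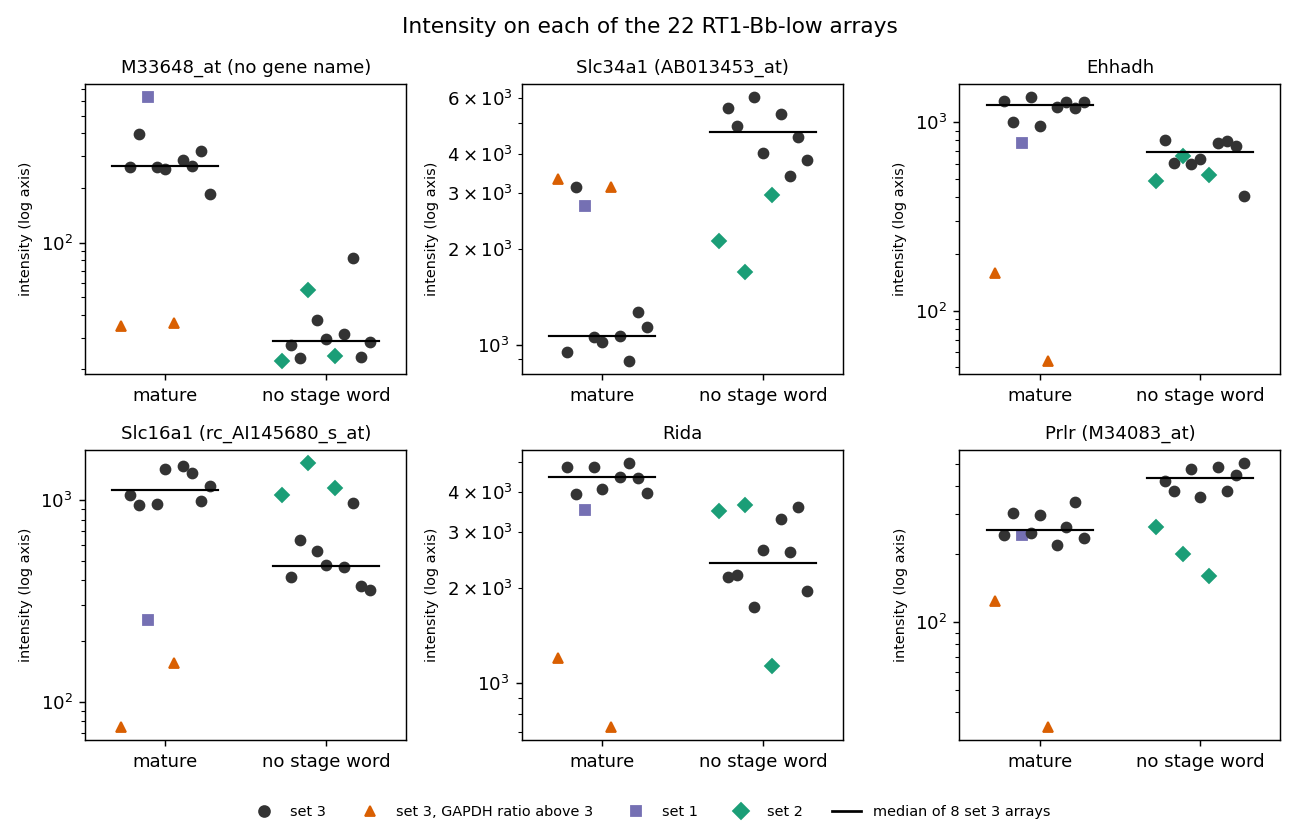
Intensity (vertical axes, log scale) of 6 probe sets on each of the 22 RT1-Bb-low arrays, with mature kidney left and kidney without a stage word right in every panel. Symbols give the control-probe set and the 2 arrays of high GAPDH ratio, and the line is the median of the 8 arrays of set 3. For Ehhadh the lines stand at 1240 and 694, and the 2 mature arrays of high GAPDH ratio, at 158 and 54.1, lie below every other array.

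Genes of fatty acid oxidation and the peroxisome were mostly higher in mature kidney. Of 43 measured members 5 rose and none fell in the 16 arrays, and their median difference was 0.12 on the log2 scale, against -0.06 over all 3834 named genes, of which 64 rose and 58 fell. In all, 69.8% of the members lay above 0, against 38.9% of all named genes. Median centring adds the same 0.081 to every difference, so it could not change the order of the list and of all genes. It put the list's median at 0.21 and that of all named genes at 0.02. Over the 22 arrays no member was called. In the 16 arrays some other lists, with 1 call or none, also exceeded the share of 38.9% above 0. These included glutathione and xenobiotic enzymes (59.6%), the proteasome (57.7%) and cytosolic ribosomal proteins (57.5%).

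Ehhadh, the bifunctional enzyme of peroxisomal beta-oxidation, had intensities of 950, 1240 and 1360 in mature kidney (lowest, median and highest), against 404, 694 and 805 in kidney without a stage word. No array of the 16 overlapped, and the rise of 0.83 ± 0.13 (adjusted p = 0.00311) remained past the threshold whichever of them was left out. The 2 mature arrays of high GAPDH ratio read 158 and 54.1, and over the 22 arrays the difference was 0.22 (adjusted p = 0.894). Eci1, an isomerase that lets unsaturated fatty acids enter beta-oxidation, read 2350, 2430 and 2660 against 1290, 1730 and 2230. It rose by 0.49 ± 0.10 (adjusted p = 0.0163) without overlap, while its other 2 probe sets gave -0.14 and 0.09 and did not pass, with -0.02 and -0.18 over the 22. Etfa, a subunit of the flavoprotein that carries electrons from the acyl-CoA dehydrogenases, rose on both of its probe sets, by 0.40 ± 0.09 and 0.58 ± 0.09. Its brighter probe set read 1170, 1350 and 1530 in mature kidney, against 879, 1030 and 1180, and differed by -0.21 over the 22 arrays. Slc27a2, a fatty acid transporter and very long chain acyl-CoA synthetase, rose by 0.37 ± 0.09 (adjusted p = 0.0362), with medians of 3300 and 2580. Cyp4a1, a fatty acid omega-hydroxylase, rose by 0.61 ± 0.15 (adjusted p = 0.0337), with medians of 2030 and 1340. Its other 2 probe sets gave 0.10 and 0.19 and did not pass, with -0.07 and -0.15 over the 22 arrays, and genes of this family share much sequence. Slc27a2 and Cyp4a1 each remained called in 6 of the 16 fits that leave 1 array out. Acot1, an acyl-CoA thioesterase and the member with the smallest p over the 22 arrays (difference 0.55 ± 0.14, adjusted p = 0.267), differed by 0.57 ± 0.16 in the 16 arrays (adjusted p = 0.0554).

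The upstream sequences of these genes are shown because the members were higher together and because nuclear receptors that govern fatty acid oxidation bind repeats of the hexamer AGGTCA. RefSeq's table for GRCr8 held 4 of the 5 genes, and the 250 bases before each start are printed 5' to 3' on the gene's strand, with the hexamer on either strand (AGGTCA or TGACCT) in capitals.
Ehhadh (chr11:92746159-92746408, plus strand): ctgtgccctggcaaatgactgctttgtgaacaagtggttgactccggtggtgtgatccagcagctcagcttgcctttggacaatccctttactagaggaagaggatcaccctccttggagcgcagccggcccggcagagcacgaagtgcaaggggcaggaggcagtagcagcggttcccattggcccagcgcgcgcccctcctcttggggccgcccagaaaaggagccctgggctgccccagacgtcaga
Eci1 (chr10:13961000-13961249, plus strand): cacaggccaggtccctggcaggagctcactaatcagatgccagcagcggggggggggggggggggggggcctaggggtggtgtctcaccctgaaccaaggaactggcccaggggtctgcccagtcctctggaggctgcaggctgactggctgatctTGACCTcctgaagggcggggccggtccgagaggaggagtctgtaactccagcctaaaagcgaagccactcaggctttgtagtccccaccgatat
Slc27a2 (chr3:134257851-134258100, plus strand): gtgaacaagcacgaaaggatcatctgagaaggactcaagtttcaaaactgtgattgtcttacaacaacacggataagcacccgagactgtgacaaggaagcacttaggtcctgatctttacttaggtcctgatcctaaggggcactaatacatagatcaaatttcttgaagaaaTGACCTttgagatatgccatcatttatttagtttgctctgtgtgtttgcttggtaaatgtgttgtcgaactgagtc
Etfa (chr8:64787966-64788215, minus strand): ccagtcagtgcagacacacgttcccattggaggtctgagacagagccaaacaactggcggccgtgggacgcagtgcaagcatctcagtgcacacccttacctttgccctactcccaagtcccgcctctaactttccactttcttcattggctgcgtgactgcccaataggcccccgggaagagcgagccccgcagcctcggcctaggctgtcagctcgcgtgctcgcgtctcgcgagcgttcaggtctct
Eci1 held 1 hexamer beginning 94 bases before its start and Slc27a2 held 1 beginning 76 bases before its start, while no match lay in the windows of Ehhadh and Etfa. Of all 33469 upstream windows of this length, 4707 held the hexamer (14.1%). A match describes these letters and nothing more.

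Enzymes of amino acid breakdown and glucose formation were also mostly higher in mature kidney. Of 44 measured members 5 rose and none fell in the 16 arrays, where 64 rose and 58 fell of all 3834 named genes. The median difference was 0.12, and 75.0% of members lay above 0, against 38.9% of all named genes. Over the 22 arrays their median was -0.04, and the 2 mature arrays of high GAPDH ratio read low for several of them. Sord, sorbitol dehydrogenase, had intensities of 3290, 4140 and 4820 in mature kidney, against 2500, 2830 and 3410 in kidney without a stage word, and rose by 0.50 ± 0.10 (adjusted p = 0.0139). Dmgdh, which breaks down dimethylglycine, rose by 0.63 ± 0.13 (adjusted p = 0.0171), with medians of 328 and 206. Both were called whichever of the 16 arrays was left out. Asl, the argininosuccinate lyase that makes arginine in the kidney, rose by 0.46 ± 0.11, Aldh6a1, of valine breakdown, by 0.43 ± 0.10, and Pck1, the key enzyme of glucose formation, by 0.38 ± 0.09. Asl, Aldh6a1 and Pck1 remained called in 10, 6 and 5 of the 16 fits that leave 1 array out, and a second probe set of Asl gave 0.20 and did not pass. For Pck1 the medians were 8500 and 6460, the groups overlapped, and the 2 mature arrays of high GAPDH ratio read 370 and 1000. Sord, Asl, Aldh6a1 and Pck1 had differences below 0 over all 22 arrays, of -0.04, -0.18, -0.22 and -0.20.

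Respiratory chain genes showed the same tilt. Of 51 measured members of oxidative phosphorylation 4 rose and none fell, where 64 rose and 58 fell of all 3834 named genes. The median difference was 0.10, and 76.5% of members lay above 0, against 38.9% of all named genes. Uqcrc2, a core subunit of complex III, had intensities of 1440, 1930 and 2790 against 1170, 1330 and 1610, and rose by 0.56 ± 0.13 (adjusted p = 0.0303). Cox7b, a subunit of cytochrome c oxidase, rose by 0.43 ± 0.10 (adjusted p = 0.0241), with medians of 2680 and 1900. For Cox7b the 6 arrays left aside tended the other way, with 581, 900 and 2600 in mature kidney against 1130, 3530 and 3660. Over the 22 arrays Uqcrc2, Cox7b and Slc25a3 differed by 0.31, 0.01 and 0.09, and none was called. Ndufs1, the largest subunit of complex I, rose by 0.56 ± 0.14 and remained called in 6 of the 16 fits that leave 1 array out, yet over the 22 arrays its difference was -0.36. Slc25a3, the mitochondrial phosphate carrier, rose by 0.37 ± 0.10 without overlap, but its call was lost in every one of the 16 fits that leave 1 array out. The medians of these 3 metabolic lists were 0.18 to 0.21 under median centring, which could only raise them. Under quantile normalization they were 0.08 to 0.14.

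Proximal tubule genes did not move one way. Among 37 measured markers and transporters 4 rose and 3 fell, where 64 rose and 58 fell of all 3834 named genes. The median of the list was -0.01 and became 0.07 under median centring. Slc15a1, a peptide transporter, had intensities of 113, 196 and 244 in mature kidney, against 61.0, 107 and 152, and rose by 0.79 ± 0.17 (adjusted p = 0.0191). Folh1, a brush border folate hydrolase, rose by 0.58 ± 0.13, Slc2a2, the glucose transporter of the basolateral side, by 0.57 ± 0.15, and Slc22a5, the carnitine transporter, by 0.45 ± 0.11. Slc2a2 and Slc22a5 remained called in 6 and 7 of the 16 fits that leave 1 array out, and a second probe set of Slc15a1 gave 0.39 and did not pass. Ggt1, the gamma-glutamyltransferase of the brush border, read 6340, 6770 and 7140 in mature kidney and 7380, 8790 and 9880 in kidney without a stage word. It fell by 0.38 ± 0.08 (adjusted p = 0.0139) without overlap. On the 2 mature arrays of high GAPDH ratio it read 20300 and 26000, and over all 22 arrays its difference was -0.01. Anpep, aminopeptidase N, fell by 0.28 ± 0.07 without overlap on its brightest probe set, while its other 2 gave 0.33 and 0.18 and did not pass, with -1.02 and -0.12 over the 22. Its call remained in 5 of the 16 fits that leave 1 array out. Slc6a18, an amino acid transporter, fell by 0.32 ± 0.08 and remained called in 2 of the 16 fits that leave 1 array out. Under median centring Ggt1, Anpep and Slc6a18 had adjusted p-values of 0.0541, 0.155 and 0.183. The summed intensity of the 37 genes lay between 124000 and 140000 in mature kidney and between 134000 and 143000 without a stage word.

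Several other transporters and enzymes led the rises. Slc16a1, which carries lactate and other monocarboxylates, read 949, 1120 and 1470 in mature kidney, against 359, 470 and 966. It rose by 1.17 ± 0.18 (adjusted p = 0.00311), with 6 of 8 mature values above all values without a stage word, and its second probe set rose by 0.69 ± 0.17. The 6 arrays left aside ran the other way, with 75.0, 156 and 255 in mature kidney against 1060, 1150 and 1530, and over the 22 arrays the difference was 0.05. Rida, a mitochondrial and cytosolic deaminase that clears reactive imines, read 3960, 4460 and 4960 against 1740, 2400 and 3610, a rise of 0.85 ± 0.13 without overlap. Nox4, the NADPH oxidase abundant in kidney tubules, read 145, 196 and 244 against 67.3, 95.8 and 118, a rise of 0.88 ± 0.13 without overlap. Sirpa, a membrane receptor for CD47, rose by 0.86 ± 0.16 without overlap on 1 of its 3 probe sets, and Cstb, an inhibitor of cysteine proteases, by 0.92 ± 0.16. Each of these 5 genes was called with any 1 of the 16 arrays left out. Over the 22 arrays Rida, Nox4, Sirpa and Cstb differed by 0.42, 0.51, 0.29 and 0.44, without a call. On the arrays left aside Sirpa ran the other way, with 22.1, 42.9 and 88.5 in mature kidney against 93.8, 125 and 181. A second and much brighter probe set of Cstb, with medians of 2730 and 2590, differed by 0.07 in the 16 arrays and by -0.04 over the 22 and did not pass. The other 2 probe sets of Sirpa gave 0.32 and -0.17 and did not pass, and the second of these was the brightest, with medians of 483 and 543.

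The remaining leading rises were on dimmer probe sets. Pde4d, which degrades cyclic AMP, had medians of 95.3 and 36.0 and rose by 1.09 ± 0.24 (adjusted p = 0.0225). Over the 22 arrays its difference was 1.08 ± 0.22, with an adjusted p of 0.112. Aldh3a2, which oxidises fatty aldehydes, rose by 1.03 ± 0.22 on a probe set with medians of 197 and 75.2, while its other 2 probe sets gave 0.62 and -0.51 and did not pass. Dpm2, of glycan synthesis, Epb41, of the membrane skeleton, and Dpyd, of pyrimidine breakdown, rose by 1.03, 1.02 and 0.87. They remained called in 4, 3 and 9 of the 16 fits that leave 1 array out. Each has a second probe set that did not pass, with a difference of 0.21 for Dpm2, -0.43 for Epb41 and 0.46 for Dpyd. For Dpm2 and Epb41 that one was the brighter, with medians of 626 and 531 for Dpm2 and of 393 and 532 for Epb41. Dgkg, a diacylglycerol kinase, rose by 0.76 ± 0.16, with medians of 384 and 199, while its second probe set, with medians of 300 and 310, differed by 0.06 and did not pass.

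**Figure D3:**
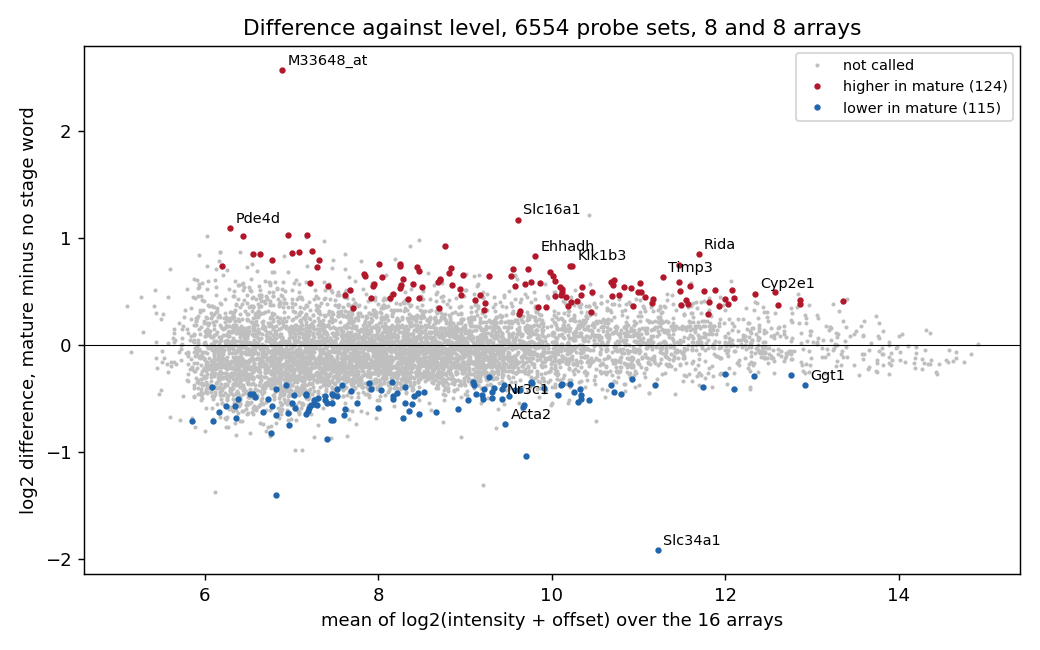
Difference between the 8 mature and 8 unstaged arrays of set 3 (vertical axis, log2) against the mean level (horizontal axis, log2 of intensity plus an offset of 15.82) for each of 6554 probe sets. Coloured points mark the 124 higher and 115 lower calls, of which M33648_at at 2.57 and Slc34a1 at -1.92 lie farthest from 0.

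Genes of hormone and lipid signalling changed singly. Of 31 measured steroid and nuclear receptor genes 1 rose and 2 fell, where 64 rose and 58 fell of all 3834 named genes. Hsd11b1, the enzyme that regenerates active glucocorticoid inside cells, read 8020, 8570 and 9810 in mature kidney, against 5010, 6580 and 7340, and rose by 0.42 ± 0.09 (adjusted p = 0.0184) without overlap. Nr3c1, the glucocorticoid receptor, read 504, 547 and 654 against 656, 801 and 969, and fell by 0.51 ± 0.09 (adjusted p = 0.00835) without overlap. Both were called with any of the 16 arrays left out. Over the 22 arrays their differences were 0.04 and 0.05, and without the 2 arrays of high GAPDH ratio alone Nr3c1 differed by 0.09. Hsd17b1, which forms estradiol, fell by 0.68 ± 0.18 at low medians of 40.6 and 82.8, and remained called in 3 of the 16 fits that leave 1 array out. A dim second probe set of Nr3c1 differed by -0.12 and did not pass. Prlr, the prolactin receptor, read 220, 257 and 340 on M34083_at in mature kidney, against 358, 434 and 507, and fell by 0.65 ± 0.10 (adjusted p = 0.00319) without overlap. Another of its 5 probe sets fell by 0.36 ± 0.08, and the other 3 gave -0.24, -0.31 and -0.39 and did not pass.

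Among 29 eicosanoid and epoxide enzymes 3 rose and none fell, where 64 rose and 58 fell of all 3834 named genes. Still, the median of the list was -0.03. Cyp2e1, a cytochrome P450 of fatty acid and alcohol oxidation, rose on 2 of its 3 probe sets. Its brightest read 5320, 6030 and 7080 in mature kidney, against 3330, 4470 and 5170, a rise of 0.48 ± 0.11 (adjusted p = 0.0241) without overlap. Ptgds, a prostaglandin D2 synthase, rose by 0.72 ± 0.16, with medians of 553 and 333, and Cyp4a1, named above, belongs to this list too. Of 13 renin-angiotensin-kallikrein genes 1 rose. This was Klk1b3, of the tissue kallikrein family, whose members share much sequence, with 1080, 1630 and 1980 in mature kidney against 617, 950 and 1140 and a rise of 0.74 ± 0.14 (adjusted p = 0.0103).

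Of 12 clock genes 1 rose and 1 fell, against 64 and 58 of all 3834 named genes. Dbp, a transcription factor driven by the clock, rose on both of its probe sets, by 0.76 ± 0.18 and 0.85 ± 0.22. The calls remained in 13 and 4 of the 16 fits that leave 1 array out. On the brighter it read 255, 311 and 440 in mature kidney and 83.5, 198 and 254 without a stage word, with no overlap. Hlf, of the same family of factors, fell by 0.45 ± 0.12, with medians of 239 and 313, and remained called in 3 of those fits, while its second probe set differed by 0.02. The labels give no time of day. Igf2r, the receptor that clears IGF2, rose by 0.47 ± 0.13 among 19 genes of the IGF axis, and remained called in 2 of those fits. Rpl22 rose by 0.38 ± 0.10, alone among 40 ribosomal protein genes, and remained called in 3 of those fits.

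Matrix genes tilted down. Of 38 measured members 3 fell and 1 rose, where 58 fell and 64 rose of all 3834 named genes. The median difference was -0.18, and 15.8% of members lay above 0, against 38.9% of all named genes. The median was -0.10 under median centring, against 0.02 for all named genes. Col4a3, a collagen chain of the glomerular basement membrane, read 139, 159 and 203 in mature kidney, against 173, 258 and 312, and fell by 0.54 ± 0.12 (adjusted p = 0.0191). Lamb2, a laminin chain of the same membrane, fell by 0.38 ± 0.09, with medians of 465 and 620, and Col15a1 by 0.48 ± 0.13, with medians of 132 and 183. Of the 3, Col4a3 alone was called with any of the 16 arrays left out, and alone under median centring. Lamb2 and Col15a1 remained called in 8 and 4 of those fits, and a second probe set of Lamb2 gave -0.16 and did not pass. The rest of the 22 arrays ran the other way for Col4a3 and Lamb2. On them Col4a3 read 148, 225 and 318 in mature kidney, against 109, 135 and 145. Lamb2 read 873, 890 and 971 there, against 469, 548 and 643. Over the 22 arrays Col4a3, Lamb2 and Col15a1 differed by -0.20, -0.08 and -0.34, without a call. Timp3, an inhibitor of the proteases that degrade matrix, rose by 0.63 ± 0.13 without overlap, with 2630, 3010 and 3540 in mature kidney against 1370, 2180 and 2590. The 2 mature arrays of high GAPDH ratio read 241 and 364 for it, and over the 22 arrays its difference was -0.11. Bgn, a small matrix proteoglycan and the member with the smallest p over the 22 arrays, differed by -0.32 ± 0.10 there (adjusted p = 0.416) and by -0.32 ± 0.11 in the 16 (adjusted p = 0.0995), while its second probe set gave -0.08 and 0.11.

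Markers of smooth muscle and of other tissues tilted down in mature kidney as the matrix genes did, though most were not called. Of 12 smooth muscle and mesangial genes 2 were above 0 (16.7%, against 38.9% of all named genes) and 1 fell (against 58 of all 3834). Their median was -0.22, and -0.14 under median centring, where that of all named genes was 0.02. Their summed intensity lay between 7820 and 10100 in mature kidney, against 9300 to 11500 without a stage word, with overlap. The gene that fell was Acta2, smooth muscle actin, with 329, 507 and 982 against 589, 938 and 1240 and a difference of -0.74 ± 0.19 (adjusted p = 0.0437). It remained called in 3 of the 16 fits that leave 1 array out, and its other 2 probe sets gave -0.34 and -0.52 and did not pass. Over the 22 arrays the called probe set differed by -0.11 (adjusted p = 0.936) and the other 2 by -0.74 and -0.89, without a call. Those of the 22 arrays outside the 16 tended the other way on the called probe set. On them mature kidney read 1070, 1240 and 4260, against 382, 401 and 1390 without a stage word. Myl9, a smooth muscle myosin light chain, differed by -1.47 ± 0.32 over the 22 arrays (adjusted p = 0.112) and by -0.86 ± 0.27 in the 16 (adjusted p = 0.0784). Its second probe set, with medians of 360 and 403, differed by -0.04 over the 22 arrays and by -0.12 in the 16. None of 15 fat, adrenal, liver and muscle markers was called, and their sums overlapped, at 5540 to 7880 and 6000 to 8380. Of these markers 13.3% lay above 0, with a median of -0.19 that became -0.11 under median centring. None of the markers in either list stood at 0 on all 16 arrays. Only 49 values of the whole series were 0, so this cannot show which tissues were present. The part of these markers in the matrix result was not tested. In whole kidney fewer cells of a type and less RNA per cell cannot be told apart.

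The distal nephron was represented by 23 measured genes, of which 1 fell and none rose, where 58 fell and 64 rose of all 3834 named genes. The median of the list was -0.16, against -0.06 over all named genes. Of the 23, 26.1% lay above 0, against 38.9% of all named genes. Scnn1a, the alpha subunit of the epithelial sodium channel, read 487, 668 and 950 in mature kidney and 666, 1050 and 1310 without a stage word, a fall of 0.56 ± 0.15 (adjusted p = 0.0445) called in 2 of the 16 fits that leave 1 array out. Aqp2 differed by -0.45 ± 0.12 (adjusted p = 0.0525), with 1280, 2010 and 2340 against 2180, 2640 and 3170. It had the smallest p of its list over the 22 arrays, at -0.51 ± 0.12 with an adjusted p of 0.159. Casr, the calcium receptor, fell by 0.35 ± 0.08 among 7 genes of the thick ascending limb, with medians of 739 and 962. On the mature arrays of high GAPDH ratio it read 2040 and 3160, and over the 22 arrays it differed by 0.15. Slc8a2, a sodium-calcium exchanger, fell by 0.52 ± 0.12 without overlap, alone among 30 genes of ion transport, and Anxa2, a calcium-binding membrane protein, fell by 0.38 ± 0.10, alone among 27 injury and repair genes, with a call that remained in 4 of the 16 fits that leave 1 array out.

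Many of the other leading falls were on dim probe sets. Grin2d, a glutamate receptor subunit, read 86.1, 130 and 162 in mature kidney, against 178, 211 and 238, and fell by 0.70 ± 0.11 (adjusted p = 0.00311) without overlap, while its second probe set gave -0.28 and did not pass. Csrp3, a muscle LIM protein, fell by 0.65 ± 0.14 and Akip1, a protein that binds protein kinase A, by 0.63 ± 0.14. These 3 were called with any of the 16 arrays left out. Over the 22 arrays Grin2d, Csrp3 and Akip1 differed by -0.46, -0.23 and -0.38, without a call. On the arrays outside the 16 Csrp3 ran the other way, with 146, 183 and 257 in mature kidney against 82.2, 91.0 and 114. The named probe set of Akip1 was dim, with medians of 38.8 and 67.9, and its other probe sets gave -0.13, -0.21 and -0.25 and did not pass. Vamp5, of vesicle fusion, Cyp2b2, a xenobiotic cytochrome P450, Prap1, Cngb1, a cyclic nucleotide channel subunit, Gap43, a growth protein of neurons, Gzmf, a granzyme, Shox2, a homeobox factor, and Synj2, a phosphoinositide phosphatase, fell by 0.63 to 0.88, with medians in mature kidney from 39.9 to 144. Of these 8, Vamp5, Cyp2b2 and Shox2 remained called in 3 or 4 of the fits that leave 1 array out. Gap43 and Synj2 ran the other way on the arrays outside the 16. There Gap43 read 175, 290 and 391 in mature kidney, against 99.5, 102 and 174. Synj2 read 103, 188 and 256, against 44.9, 69.7 and 74.4. Over the 22 arrays these genes differed by -0.22 and -0.11, without a call. Cyp2b2 belongs to a family with nearly identical members, which its probe set may not tell apart, and its second probe set gave -0.15. A second and brighter probe set of Vamp5 gave -0.07, the other probe sets of Cngb1 gave -0.13 and -0.23, and none of these passed. Under median centring the calls of Casr, Scnn1a, Acta2, Anxa2, Hlf, Hsd17b1, Prap1, Vamp5, Cyp2b2 and Shox2 were lost, with adjusted p-values from 0.0507 to 0.102 and no change of direction.

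The other lists held no called member in the 16 arrays: podocyte, endothelial, immune, erythroid, cell cycle, glutathione and xenobiotic enzymes, immediate early and heat shock, interferon response, cholesterol synthesis and the proteasome. Their medians lay between -0.10 and 0.03. Over all 22 arrays none of the 27 lists held a called member. The members with the smallest p there included Ifitm3, an interferon-induced membrane protein, at -0.45 ± 0.12 (adjusted p = 0.291), and Hspd1, a mitochondrial chaperone, at 0.49 ± 0.14 (adjusted p = 0.32). Lgals3, a galectin of injured tubules, differed by -0.39 ± 0.11 (adjusted p = 0.351), and Cyp24a1, which degrades vitamin D, by 0.79 ± 0.24 (adjusted p = 0.392). Fmo1, a flavin monooxygenase, and Slc5a1, a sodium-glucose cotransporter, differed by 0.49 ± 0.15 and -0.39 ± 0.12, both with an adjusted p of 0.392. Cox7a2l, of the respiratory chain, differed by 0.56 ± 0.17 and Abat, of GABA breakdown, by 0.52 ± 0.17, while the second probe sets of these 2 genes differed by -0.15 and -0.20. In the 16 arrays the adjusted p-values of these 8 genes lay between 0.0728 and 0.281.

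**Figure D4:**
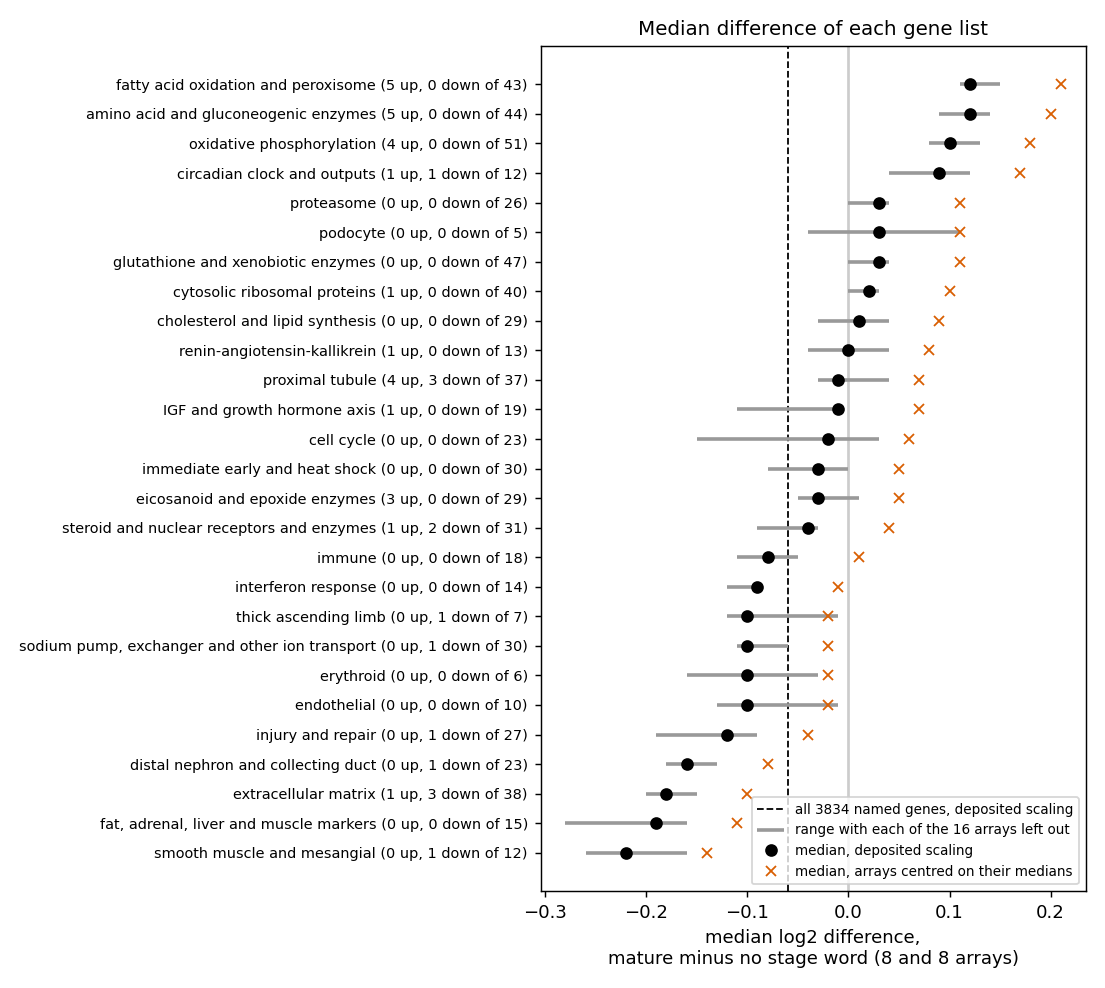
Median log2 difference of each of 27 gene lists between the 8 mature and 8 unstaged arrays of set 3 (horizontal axis), with the numbers of called and measured members beside each name. Circles are medians on the deposited scale, crosses those with arrays centred on their medians, grey lines the range with each array left out, and the dashed line is the median of all named genes, at -0.06. Fatty acid oxidation, amino acid and respiratory chain genes lie at 0.10 to 0.12, and matrix and smooth muscle genes at -0.18 and -0.22.

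The same 2 descriptions also occur among 6 arrays with high RT1-Bb, 3 of each. All 3 mature arrays of that kind belong to set 1 and all 3 without a stage word to set 2, so stage and control-probe set cannot be told apart there. In a fit of these 6 arrays beside the RT1-Bb-low arrays of GAPDH ratio at most 3, 71 probe sets were higher and 128 lower in mature kidney (3.04% called). Of the 124 probe sets higher in the 16 arrays, 45 were higher there as well (36.3%, against 58.0% of all probe sets), and of the 115 lower ones 47 were lower (40.9%, against 42.0%). The difference between mature and unstaged kidney itself differed between RT1-Bb-low and RT1-Bb-high arrays for 84 probe sets, 55 upward and 29 downward (1.28% called). For M33648_at the excess in RT1-Bb-low arrays was 2.36 ± 0.44 (adjusted p = 0.00664), and the RT1-Bb-high arrays had medians of 184 and 112. With the 2 arrays of high GAPDH ratio kept it was 1.88 ± 0.72 (adjusted p = 0.428), and it was not called with the set as a block either. Glul, glutamine synthetase, chosen after its values were seen, had the smallest adjusted p of this difference, 2.32e-07. On rc_AI232783_s_at it had medians of 14400 and 13400 on RT1-Bb-low arrays, against 2770 and 15300 on RT1-Bb-high ones, an excess of 2.84 ± 0.26.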

How the data were processed

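Linear intensities for 8799 probe sets were deposited by the authors for each array. Their summarisation method, not given in the sources used here, left a 2% trimmed mean of 500.2 to 500.7 on all arrays, so the deposited scaling was kept. The arrays, lists and comparisons were chosen with earlier results of these data known.

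Tests used log2 of intensity plus 15.82, an offset equal to 0.1 of the overall median, which understates changes of dim probe sets. Left out were 59 control probe sets, X56596_at, which chose the arrays, and probe sets whose mean over 55 arrays lay under the 25th percentile, leaving 6554. Limma 3.58.1 (R 4.3.3; lmFit, eBayes) tested mature minus no stage word, 2-sided, with Benjamini-Hochberg adjustment over all 6554 and a threshold of 0.05. Control values were compared by permutation (exact with 8 and 8 arrays, 100000 resamples otherwise). The array sets came from Ward clustering of 42 control probe sets into 3, a number that was set by hand. The number of arrays limits the precision.

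Genes were named by the platform's annotation, updated through RefSeq (GRCr8): 7018 probe sets carried 1 symbol, 308 several and 1473 none. In lists a gene is its brightest probe set. The naming rule took the 15 largest rises and falls of the 22-array fit, which held no named gene, and, from each list, up to 4 members by smallest p, of which the first is printed where that p lay under 0.01. The 15 largest rises and 15 falls of the 16-array fit and the called list members were added after their values were seen.

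On simulated data, changes of 0.5, 1 and 2 (log2) were recovered in 25.4%, 74.6% and 100% of probe sets with 22 arrays, 7 of 140 calls being false. With 16 arrays the shares were 55.2%, 94% and 100%, 13 of 179 calls being false. The simulated noise held no control-probe sets.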

Additional observations from a re-analysis of the deposited data

Results flagged for a closer look

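Among 160 groups of 8 values examined for the named probe sets, 14 held an array far from the others of its group, where chance gives about 1 group in 20. Values here are log2 of intensity plus the offset. On mature arrays these were Aldh3a2 at 6.95 on replicate 6 (others 7.59 to 8.12), Dpyd at 6.95 on replicate 7, Slc15a1 at 7.00 on replicate 3, Slc34a1 at 11.62 on replicate 3 (others 9.82 to 10.33) and Abat at 9.75 on replicate 13. Replicate 14 without a stage word stood apart for 5 genes, namely Ehhadh at 8.71 (others 9.26 to 9.68), Shox2 at 8.64, Dmgdh at 7.06, Aldh6a1 at 12.20 and Slc8a2 at 9.99. Its median correlation with the other 21 arrays was 0.92, the lowest of the 8, and its 18S control probe set read 12858, against 67.4 to 219 on the other 7. Whether these move together was not tested. The other arrays without a stage word were replicate 11 for M33648_at at 6.61 (others 5.28 to 5.73) and Pck1 at 13.06, replicate 2 for Epb41 at 7.20 and replicate 10 for Cyp24a1 at 7.21. Without replicate 14 the 16-array comparison called 114 probe sets higher and 130 lower.

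The difference between mature kidney and kidney without a stage word itself differed between RT1-Bb-low and RT1-Bb-high arrays, by the interaction term, for 7 named probe sets once the 2 arrays of high GAPDH ratio were left out. None of the 7 was called with those arrays kept, where adjusted p-values lay between 0.253 and 0.677, or with the set as a block. The excess in RT1-Bb-low arrays was 2.36 for M33648_at, 1.5 for Rida, 1.23 for Dmgdh, 1.09 for Hsd11b1 and 0.91 for Psme1, a proteasome activator subunit. It was -1.05 for Grin2d and -1.58 for Synj2. The RT1-Bb-high arrays of the 2 descriptions lie in different control-probe sets, so stage and set cannot be told apart in these values.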

How the results depend on the processing

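No paired analysis was possible because replicate numbers only follow accession order, although the arrays outside the 16 are replicates 1, 5 and 9 in both groups. Over 22 arrays the 1 higher and 0 lower probe sets became 0 higher with a filter at the 50th percentile, which removes M33648_at, 59 and 61 with array weights, 11 and 17 with all 55 arrays in the fit, 2 and 1 with the set as a block, 3 and 1 in set 3 alone, 2 and 2 with control components as covariates, 3 and 2 without high GAPDH ratios, 89 and 94 with both that and the block, and 124 and 115 in the 16 arrays. Leaving out 1 of 22 arrays gave 1 to 2 higher and 0 to 1 lower. M33648_at stayed past the threshold wherever it was tested, at 1.45 to 2.71. After averaging the probe sets of each gene, no gene was called over 22 arrays and 64 and 53 were in the 16.

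The alternatives within the 16 arrays were chosen after seeing the data. The 115 lower became 74 with quantile normalization, 42 with median centring, 202 with array weights and 244 with control components. With no filter on dim probe sets 96 were higher and 96 lower, and 18 of 80 named results lost their call, against 16 with quantile normalization and 15 with median centring. Leaving out 1 array gave 46 to 149 higher and 38 to 160 lower. The total of 239 dropped by over 1.5 times without mature replicates 2 (to 84), 6 (137), 7 (154), 11 (112) or 14 (119), or without replicates 2 (147), 3 (147), 6 (122), 7 (118) or 13 (144) of the other group. Of 67 named calls, 26 held in all 16 such fits and 43 in at least 8.

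Directions that turned were all on arrays outside the 16, except Anpep, at 0.08 with probe sets averaged. Over 22 arrays and in the fit of all 55 these were Casr (0.15), Timp3 (-0.11), Etfa (-0.21), Aldh6a1 (-0.22), Asl (-0.18), Pck1 (-0.20), Sord (-0.04), Nr3c1 (0.05) and Ndufs1 (-0.36). In set 3 with the high-ratio arrays kept, and with the set as a block, they were Timp3 (-0.03), Etfa (-0.21), Aldh6a1 (-0.04), Asl (-0.03) and Pck1 (-0.37). Nr3c1 was 0.09 without high ratios alone.

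The interaction called 16 higher and 3 lower with all arrays, 55 and 29 without high GAPDH ratios, and 6 and 7 with the block. The RT1-Bb-high comparison called 10 and 42, 71 and 128, and 2 and 2 in the same settings. Signal over background was not analysed.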
